A study of Homo sapiens with 18 samples.

Results

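The clustered protocadherins are cell surface adhesion proteins encoded in 3 neighbouring gene clusters on chromosome 5, and their RNA was followed here across the guides and oxygen levels of an XIST knockdown (KD) experiment. Genes were taken by symbol, as PCDHA or PCDHAC, PCDHB, and PCDHGA, PCDHGB or PCDHGC with a number, which gave 53 of the 28277 genes listed. There were 15 alpha genes (hg38, chr5:140786136-141012346), 16 beta genes (chr5:141051376-141249365) and 22 gamma genes (chr5:141330685-141512979). The rule used symbols only and no measured value. These genes, and the gene lists used below, were chosen with earlier results of these data known. The cells were OVCAR3, an established line from an ovarian cancer, and all of them carried dCas9-KRAB, in which a Cas9 that cannot cut is joined to the KRAB repressor. Clonal cells with a control guide (sgCtl) or with a guide to the XIST promoter (sgXIST7 or sgXIST9) were kept in normoxia or for 24 h in a chamber at 1% oxygen. Each of the 6 groups had 3 libraries, 18 in all, of total RNA depleted of ribosomal RNA. The study asked what the loss of XIST, the long noncoding RNA of X chromosome inactivation, does to ovarian cancer cells, and how such cells behave at low oxygen. Cells of each guide are clonal, so that an effect of the guide and a difference between clones cannot be told apart. The guides bind different regions of that promoter. The labels do not say whether replicates were separate cultures, and p-values then measure only the spread between these libraries.

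Each alpha and gamma gene has its own large variable exon, which codes for the extracellular cadherin repeats, the membrane span and part of the cytoplasmic tail, and is spliced to constant exons shared by the whole cluster. Beta genes are single exons without a constant part. Neurons are known to choose a few variable promoters at random, and the resulting mixture of proteins binds only a matching mixture on another membrane, which lets a neuron tell its own branches from those of others. The 5 C-type genes (PCDHAC1, PCDHAC2, PCDHGC3, PCDHGC4 and PCDHGC5) are known to be used more broadly and not at random. Promoter choice is known to involve CTCF and cohesin loops, a conserved promoter element with the core CGCT, DNA methylation by DNMT3B, and SMCHD1, a chromatin protein that also acts on the inactive X chromosome.

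Counts on genes ranged from 11794375 to 24906936 per library. The 3 constant exons (2866 bases shared by 15 alpha genes, and 2175 bases shared by 22 gamma genes) are assigned to more than 1 gene, and their reads may be lost in counting. The order of genes by level was therefore taken from CPM (counts scaled by TMM to a library size of 1000000) per kilobase of exon that no other listed gene covers. Sums over genes and shares of a cluster's CPM were not scaled to length. Beta genes are close copies of each other. Of the 50-base windows of their exons, a median of 85.3% occur once in hg38 (52.9% in PCDHB8, 64.7% in PCDHB10, 74.5% in PCDHB13, 77.6% in PCDHB2, 87.0% in PCDHB16 and 90.3% in PCDHB7), and the other windows cannot be placed by 50 bases alone. How the counting treated such reads is not given in the sources used here, and beta counts are uncertain to that extent. The share was 100% for each of the 5 C-type genes. In bulk RNA, as here, fewer cells that use a gene and less RNA per cell cannot be told apart.

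The targeted gene went with the labels. XIST counts in normoxia were 4900, 11209 and 4213 in sgCtl, 5, 4 and 1 in sgXIST7, and 650, 1009 and 898 in sgXIST9. In hypoxia they were 1974, 5014 and 1589, then 0, 2 and 3, then 357, 472 and 510. Both KD clones were below sgCtl in every library, and sgXIST9 kept more XIST than sgXIST7. By edgeR, the log2 fold change against sgCtl in normoxia was -11.52 in sgXIST7 (adjusted p = 6.325e-09) and -3.41 in sgXIST9 (adjusted p = 1.915e-05). Of the cell type markers, 11 ovarian epithelium genes summed to between 297.5 and 517.9 CPM per library. Only 5 to 7 of these 11 had more than 3 counts in any library of a group. MUC16 was at 0 in 5 groups. KRT7 and CDH1 were at 0 in sgCtl in normoxia and in sgXIST7 in hypoxia, and KRT7 also in sgXIST9 in hypoxia. The 9 neuron genes summed to between 113.1 and 274.9 CPM, with STMN2 at 0 in every library and SNAP25 at 1 count in all. The 7 fibroblast genes summed to between 429.7 and 1287 CPM, most of it COL3A1, and the 5 blood genes to between 11.1 and 55.9 CPM. Some markers moved with the KD clones: MAP2, of the neuron list, was at 0.190 CPM in sgCtl, 15.1 in sgXIST7 and 18.6 in sgXIST9 in normoxia and at 0.142, 33.6 and 33.6 in hypoxia, and the fibroblast marker COL1A2 was at 0.275, 96.7 and 49.2 and at 0.213, 189.2 and 45.5. COL1A1 and KRT8, an epithelial keratin, were also called higher than sgCtl in both clones at both oxygen levels, MSLN was called higher in sgXIST7 in normoxia, and DCN was called lower in both clones in hypoxia. Against sgCtl, 1 of 3 tested neuron, 2 or 3 of 4 fibroblast, 1 or 2 of 5 ovarian and 0 of 1 blood markers were called. Of all genes, 7.76% (sgXIST7) and 7.7% (sgXIST9) were called in normoxia and 14% and 9.53% in hypoxia. The part of these levels in the results was not tested. Among the hypoxia libraries, replicate 3 held the lowest CPM of its group for 8 of 9 tested alpha genes in each clone, and for 12 (sgCtl), 17 (sgXIST7) and 19 (sgXIST9) of 20 tested gamma genes. Counts of genes called under hypoxia are therefore given with and without these 3 libraries.

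Most clustered protocadherins were read at a low level in these cells. More than 3 counts were found in every library for 30 of the 53, and 3 (PCDHA3, PCDHB1 and PCDHGA3) never had more than 3. PCDHB1 had 1 count over all 18 libraries. A filter on low counts left 40 genes for testing, 9 alpha, 11 beta and 20 gamma, among 14938 genes. The 13 left out were PCDHA1, PCDHA2, PCDHA3, PCDHA4, PCDHA7, PCDHA8, PCDHB1, PCDHB6, PCDHB8, PCDHB11, PCDHB12, PCDHGA2 and PCDHGA3. Since 3 counts were worth 0.130 to 0.266 CPM, lower levels could not be resolved at this depth.

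In the alpha cluster of sgCtl cells in normoxia, the 2 C-type genes led. Per kilobase, PCDHAC2 was at 3.58 ± 0.54 CPM (SD, n = 3), PCDHAC1 at 2.49 ± 0.49 and PCDHA11 at 1.19 ± 0.20, and no library of a gene overlapped with the next in this order. PCDHA11 and PCDHA13 overlapped. In the gamma cluster, PCDHGC3 led at 4.93 ± 1.13 CPM per kilobase, followed without overlap by PCDHGB1 (2.42 ± 0.72), which overlapped with PCDHGB7 (2.25 ± 0.43). In the beta cluster, PCDHB2 was at 5.40 ± 0.26 CPM per kilobase and PCDHB14, the next, at 1.14 ± 0.31. PCDHB2 was the first beta gene in all 6 groups and did not overlap with the second in any of them. The leading gene of each cluster took a large share of its cluster's CPM in these cells, 35.6% ± 1.0 for PCDHAC2, 47.4% ± 4.9 for PCDHB2 and 26.6% ± 1.0 for PCDHGC3 (SD, n = 3).

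The 250 bases before the RefSeq start (GRCh38.p14, plus strand) of these 3 leading genes, and of PCDHB7, a beta gene that fell in hypoxia in each clone, are shown with CGCT, the core of the conserved element, in capitals (AGCG is the same core on the other strand).
PCDHAC2, chr5:140966226-140966475: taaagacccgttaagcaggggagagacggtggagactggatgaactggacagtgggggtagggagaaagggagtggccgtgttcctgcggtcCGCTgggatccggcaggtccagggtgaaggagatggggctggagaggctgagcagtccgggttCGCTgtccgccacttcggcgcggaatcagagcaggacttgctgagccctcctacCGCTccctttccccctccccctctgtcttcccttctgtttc
PCDHGC3, chr5:141475716-141475965: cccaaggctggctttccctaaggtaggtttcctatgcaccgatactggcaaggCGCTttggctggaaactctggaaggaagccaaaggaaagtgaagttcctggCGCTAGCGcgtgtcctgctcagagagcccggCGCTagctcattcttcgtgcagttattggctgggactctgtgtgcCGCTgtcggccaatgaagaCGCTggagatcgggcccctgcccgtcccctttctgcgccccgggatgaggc
PCDHB2, chr5:141094365-141094614: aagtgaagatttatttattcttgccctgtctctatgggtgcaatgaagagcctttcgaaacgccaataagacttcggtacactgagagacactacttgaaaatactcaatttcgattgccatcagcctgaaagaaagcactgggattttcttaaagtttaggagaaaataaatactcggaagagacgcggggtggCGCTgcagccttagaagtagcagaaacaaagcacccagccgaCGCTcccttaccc
PCDHB7, chr5:141172394-141172643: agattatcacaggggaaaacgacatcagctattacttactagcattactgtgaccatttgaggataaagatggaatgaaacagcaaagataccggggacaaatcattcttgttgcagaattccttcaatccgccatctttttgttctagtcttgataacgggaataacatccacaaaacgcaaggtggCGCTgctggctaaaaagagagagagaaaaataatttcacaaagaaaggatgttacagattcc
The windows hold 3, 6, 2 and 1 copies of CGCT and 13, 15, 10 and 6 CpG in this order. RefSeq promoter windows of 300 bases (250 before and 50 after the start) matched 47 of the 53 genes. No window was matched for PCDHA3, PCDHA13, PCDHB6, PCDHB11, PCDHGA12 and PCDHGC5. CGCT stood on either strand in 46 of 47 genes (97.9%), against 70% of all 35116 windows. This counts the short sequence and not the whole conserved element. The windows of the clustered genes were poorer in CpG, with a median of 7.5 over 52 windows (5 gamma genes have a second start) against 14, and in GC content, with a median of 40.7% against 58.7%. This did not hold for the C-type genes with a window. PCDHAC1 had 27 CpG (66% GC), PCDHAC2 15 (63%), PCDHGC3 18 (59%) and PCDHGC4 23 and 24 (60.7% and 62.3%) in 300 bases. ACGTG, a core of the hypoxia response element, was found on either strand in 10 of 47 genes (21.3%), against 21.4% of all windows. GCGTG, the other form of this core, was found in 7 of 47 genes (14.9%), against 36.5% of all windows.

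PCDHB7 and PCDHB16, both transmembrane adhesion proteins of the beta cluster, fell in hypoxia in each of the 3 clones and were the only clustered genes called in all 3. Neither gene would have passed the filter on low counts by its hypoxia libraries alone. Both were tested because of their normoxia reads, and that choice favours a fall. The call of PCDHB16 in sgCtl was lost under DESeq2. With only the groups compared in the fit, both genes lost their calls in sgCtl, and PCDHB16 was too low to be tested in the KD clones. A gene was called with an edgeR quasi-likelihood adjusted p (Benjamini-Hochberg over all 14938 genes) under 0.01 and a log2 fold change beyond 1. In sgCtl, 4 of 40 tested genes were called, all lower and all beta, where 8.49% of all genes were called lower. In sgXIST7, 4 were lower and 1 was higher, where 12.2% and 15.1% of all genes were. In sgXIST9, 2 were lower and 5 were higher, where 8.58% and 14.7% were. In either direction 10%, 12.5% and 17.5% of the 40 were called, less than the 19.7%, 27.3% and 23.3% of all genes. With hypoxia replicate 3 of every clone left out, 5, 5 and 9 were called, and the share of all genes called in that fit is not given here. Libraries of the oxygen levels did not overlap for 11, 14 and 19 of the 40 genes, against 54.9%, 63.9% and 65.9% of all genes. With 3 libraries against 3, an exact two-sided permutation test cannot go below p = 0.1, and it gave that value for each gene without overlap.

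PCDHB7 (chr5:141172644-141176383) had 34, 38 and 35 counts in sgCtl in normoxia and 4, 19 and 0 in hypoxia. In sgXIST7 it had 30, 31 and 29 against 3, 1 and 0, and in sgXIST9 it had 25, 16 and 16 against 4, 5 and 0. Every hypoxia library was below every normoxia library of its clone. In sgCtl the mean fell from 2.41 to 0.398 CPM, a log2 fold change of -2.40 (SE 0.60, adjusted p = 0.0032), and in sgXIST9 from 0.967 to 0.136 CPM, a change of -2.66 (SE 0.72, adjusted p = 0.0047). In sgXIST7, where 4 counts were left over 3 libraries, the ratio of normoxia to hypoxia was 19.2 (95% Clopper-Pearson interval 7.23 to 71.9, counting error only), with an edgeR adjusted p of 0.00027. The call in sgXIST7 held without any single library. In sgCtl it was lost without normoxia replicate 2 (-2.25) or hypoxia replicate 1 (-2.12), and in sgXIST9 without any library but normoxia replicate 2 and hypoxia replicate 2 (-2.20 to -2.85).

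PCDHB16 (chr5:141181690-141186221) had 10, 10 and 13 counts in sgCtl in normoxia and 2, 5 and 0 in hypoxia. In sgXIST7 it went from 5, 12 and 7 to 0 in all 3 libraries, and in sgXIST9 from 9, 8 and 7 to 1, 1 and 0. The oxygen levels did not overlap in any clone. The log2 fold change in sgCtl was -2.30 (SE 0.61, adjusted p = 0.0053). In sgXIST7 PCDHB16 was at least 2.21-fold lower in hypoxia, against a floor of 3 counts per library (adjusted p = 0.00036). In sgXIST9 the ratio of normoxia to hypoxia was 12.3 (95% interval 3.05 to 107.4, adjusted p = 0.0018). The call in sgCtl was the weaker one, since it was lost when any library but hypoxia replicate 2 was left out (-1.89 to -2.36).

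PCDHB7 and PCDHB16 lie close together, with PCDHB8 between them and PCDHB6 upstream, and both of these neighbours were too low to be tested. PCDHB8 went from 25 counts over 3 libraries to 3 in sgCtl, from 13 to 0 in sgXIST7, and from 15 to 3 counts in sgXIST9. PCDHB6 went from 19 to 3, from 12 to 3 and from 10 to 0. Summed after their values were seen, and so with no test, PCDHB6, PCDHB7, PCDHB8 and PCDHB16 had 53, 71 and 60 counts in normoxia and 7, 26 and 3 in hypoxia in sgCtl. The 4 genes had 43, 54 and 42 against 5, 2 and 0 in sgXIST7, and 45, 33 and 28 against 7, 7 and 0 in sgXIST9. In every clone the 3 hypoxia libraries lay below the 3 normoxia libraries. Upstream, PCDHB3 to PCDHB5 summed to 6.996 ± 0.78 CPM in normoxia and 3.98 ± 1.07 in hypoxia in sgCtl, to 3.92 ± 1.11 and 2.36 ± 0.65 in sgXIST7, and to 3.08 ± 0.40 and 3.10 ± 0.23 in sgXIST9. Downstream, PCDHB9 to PCDHB15 summed to 13.6 ± 2.81 and 6.31 ± 1.43, to 10.05 ± 3.15 and 8.51 ± 3.29, and to 6.56 ± 0.63 and 10.3 ± 2.69. In sgCtl the ratio of normoxia to hypoxia counts was 4.66 for PCDHB10 and 5.07 for PCDHB15, downstream, beside 4.88 for PCDHB7 and 4.94 for PCDHB16.

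PCDHB13 and PCDHB10, further along the beta cluster, also fell in sgCtl. PCDHB13 (chr5:141213919-141218979) had 49, 84 and 73 counts in normoxia and 18, 28 and 18 in hypoxia, a log2 fold change of -1.77 (SE 0.41, adjusted p = 0.0018). It fell in sgXIST7 too, from 38, 77 and 33 to 18, 12 and 7 counts (-1.84, SE 0.44, adjusted p = 0.0017). In sgXIST9 it started low and did not pass the test, with 23, 25 and 24 counts in normoxia, 33, 21 and 10 in hypoxia and a log2 fold change of -0.25 (adjusted p = 0.64). PCDHB10 had 12, 7 and 21 counts in sgCtl in normoxia and 2, 6 and 1 in hypoxia (-2.18, SE 0.55, adjusted p = 0.0033). Its groups overlapped in sgXIST7 (10, 12 and 10 against 6, 11 and 1) and in sgXIST9 (15, 5 and 9 against 17, 13 and 9), and neither change passed. PCDHB15 had 10, 9 and 10 counts against 2, 4 and 0 in sgCtl (adjusted p = 0.018, not called). The call of PCDHB13 was lost in sgCtl without normoxia replicate 2 (-1.46) or hypoxia replicate 1 (-1.64) and in sgXIST7 without normoxia replicate 2 (-1.19) or hypoxia replicate 2 (-1.68). That of PCDHB10 was lost without normoxia replicate 3 (-1.84), hypoxia replicate 1 (-1.97) or hypoxia replicate 3 (-1.95), and it was too low to be tested with only the groups compared in the fit.

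The beta genes that fell and those that did not share a promoter sequence. The stretch GGTGGCGCT, chosen after these windows were compared with each other, was found in 13 of 14 beta windows (92.9%), in 0 of 13 alpha genes and in 0 of 20 gamma genes, and in 0.501% of all windows on either strand. It contains CGCT. The beta gene without it was PCDHB1. For 4 genes that fell in hypoxia and for PCDHB2 and PCDHB14, which were called higher in sgXIST9, 30 bases around the stretch are shown with the 9 shared bases in capitals.
PCDHB7, chr5:141172567-141172596: caaaacgcaaGGTGGCGCTgctggctaaaa
PCDHB16, chr5:141182311-141182340: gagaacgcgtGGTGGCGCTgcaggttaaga
PCDHB10, chr5:141192300-141192329: gaggccacacGGTGGCGCTgcaggctaaag
PCDHB13, chr5:141213866-141213895: gaggacgcgtGGTGGCGCTgcaggataaga
PCDHB2, chr5:141094545-141094574: agagacgcggGGTGGCGCTgcagccttaga
PCDHB14, chr5:141223264-141223293: ggagacacatGGTGGCGCTacaggataaga
The capitals begin 43 to 69 bases before the RefSeq start in these 6 genes, and the deposited PCDHB16 and PCDHB14 genes start upstream of the bases shown. The stretch is thus in genes that fell and in genes that rose, and its presence does not separate them.

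**Figure D1:**
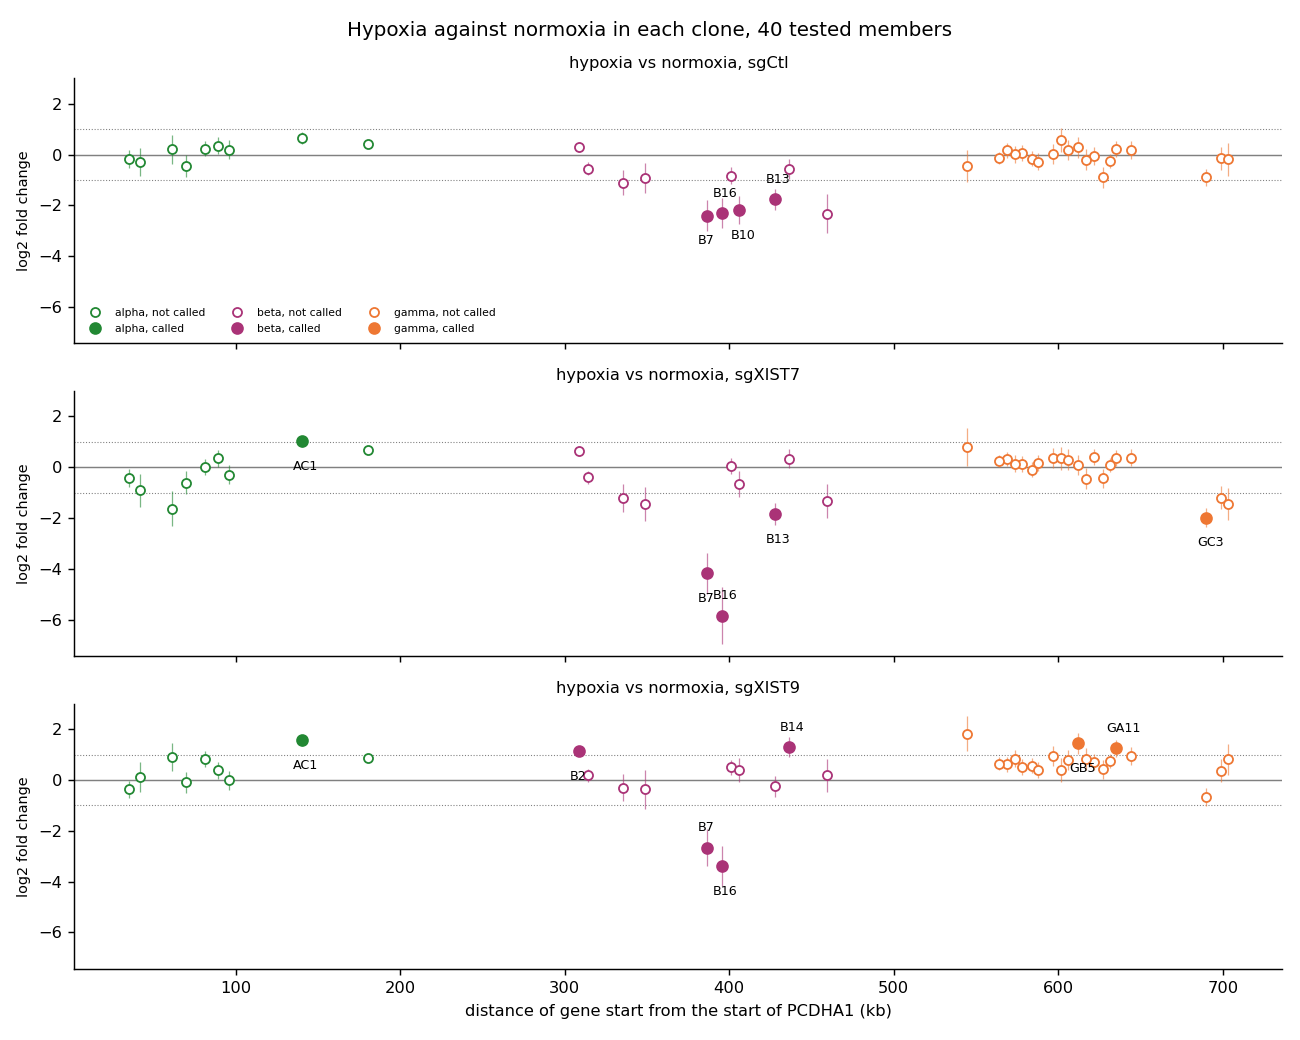
Log2 fold change (y axis) of hypoxia against normoxia in sgCtl, sgXIST7 and sgXIST9 for the 40 tested genes, by distance of the gene start from that of PCDHA1 in kb (x axis). Bars are standard errors, dotted lines mark a log2 fold change of 1 in either direction, and filled points are called genes. PCDHB7 and PCDHB16 are the lowest points in sgXIST7 and sgXIST9, and their fitted values there rest on few or 0 hypoxia counts.

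PCDHB2, the most abundant beta gene (chr5:141094615-141098701), did not fall. Its counts were 316, 281 and 405 in normoxia and 457, 458 and 339 in hypoxia in sgCtl, 302, 230 and 312 against 551, 406 and 185 in sgXIST7, and 238, 203 and 198 against 560, 655 and 272 in sgXIST9. On the CPM scale, oxygen levels overlapped in sgCtl and were apart, with hypoxia higher, in both KD clones. The log2 fold change was 0.29 (adjusted p = 0.21) in sgCtl, 0.63 (adjusted p = 0.0096, below the fold threshold) in sgXIST7 and 1.14 (SE 0.19, adjusted p = 9.8e-05) in sgXIST9, where it rose. PCDHB14 also rose in sgXIST9, from 43, 39 and 35 to 93, 170 and 45 counts (1.30, SE 0.39, adjusted p = 0.0093). Its call was lost without any of 5 of the 6 sgXIST9 libraries, all but hypoxia replicate 3 (0.83 to 1.41), and also with median-of-ratios scaling or only the groups compared, and that of PCDHB2 was lost without hypoxia replicate 2 (0.97). PCDHB2's share of the beta cluster's CPM went from 47.4% ± 4.9 to 71.0% ± 4.9 in sgCtl, to 65.3% ± 3.7 from 45.6% ± 7.9 in sgXIST7, and to 63.8% ± 1.5 from 49.0% ± 1.8 in sgXIST9 (SD, n = 3). Without PCDHB2, the beta genes summed to 24.8 ± 4.73 CPM in normoxia and 10.95 ± 1.13 in hypoxia in sgCtl, with no overlap. They summed to 16.2 ± 4.88 and 10.99 ± 4.01 in sgXIST7 and to 11.4 ± 0.862 and 13.6 ± 3.05 in sgXIST9, where the oxygen levels overlapped.

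**Figure D2:**
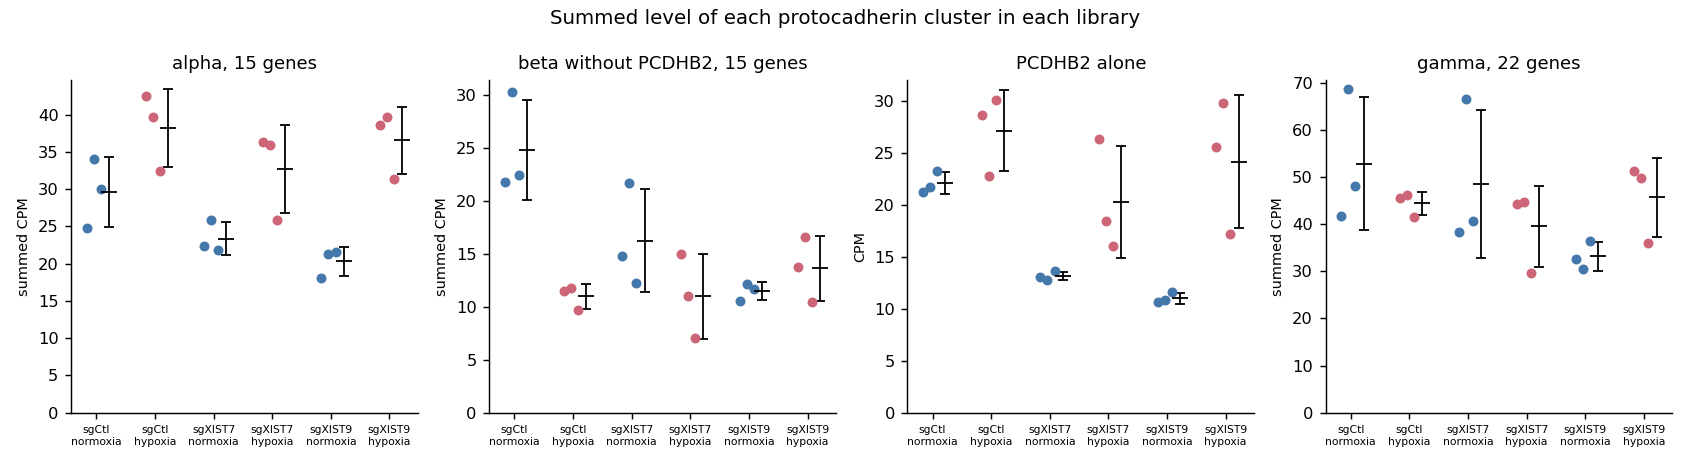
Summed CPM (y axis, TMM library size) of the alpha genes, of the beta genes without PCDHB2, of PCDHB2 alone and of the gamma genes in each of the 18 libraries, by guide and oxygen (x axis; blue normoxia, red hypoxia). Points are libraries and bars are the mean and SD of 3. The sum of the beta genes without PCDHB2 lies between 9.66 and 11.8 CPM in the sgCtl hypoxia libraries, below the 21.7 to 30.2 CPM of normoxia.

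Over all 11 tested beta genes, the median log2 fold change in hypoxia was -1.10 in sgCtl, -1.22 in sgXIST7 (-1.14 with PCDHB7 and PCDHB16 set to the floor of 3 counts per library) and 0.18 in sgXIST9, beside 0.02, 0.01 and 0.09 over all genes. In sgCtl 10 of 11 were lower, in sgXIST7 8 and in sgXIST9 5. Of the beta genes, 5 were lower in all 3 clones and 1, PCDHB2, was higher in all 3. These counts and medians include PCDHB7 and PCDHB16, which were tested because of their normoxia reads, and that choice favours a fall. The difference in response between sgXIST9 and sgCtl was tested as an interaction. No clustered gene passed in either KD clone, where 1.52% (sgXIST7) and 1.01% (sgXIST9) of all genes were called. With no adjustment, 2 and 13 of the 40 had a p under 0.05 by edgeR, but the share of all genes at that p is not given here. DESeq2 also called 0 in both. In sgXIST9 the interaction was nearest to the threshold for PCDHB10 (2.58, SE 0.72, adjusted p = 0.047), followed by PCDHB14 (1.85, SE 0.55, adjusted p = 0.059) and PCDHB2 (0.84, SE 0.27, adjusted p = 0.077). It was positive for 35 of 40 genes, beside 53.7% of all genes. Without hypoxia replicate 3 of every clone, 3 genes were called in this interaction, PCDHB2, PCDHB9 and PCDHB14. The share of all genes called in that fit is not given here, so this count has no background beside it.

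The C-type genes of the alpha cluster went the other way. PCDHAC1 had 80, 101 and 134 counts in sgCtl in normoxia and 217, 193 and 109 in hypoxia, 115, 104 and 103 against 232, 262 and 91 in sgXIST7, and 98, 73 and 78 against 302, 316 and 150 in sgXIST9. Scaled to library size, every hypoxia library was above every normoxia library in each clone. The log2 fold change was 0.65 in sgCtl (SE 0.22, adjusted p = 0.020), which did not pass, 1.03 in sgXIST7 (SE 0.22, adjusted p = 0.00069) and 1.56 in sgXIST9 (SE 0.22, adjusted p = 1.7e-05), where it rose. The call in sgXIST7 was lost without normoxia replicate 3, hypoxia replicate 1 or hypoxia replicate 2 of that clone, with the log2 fold change between 0.92 and 0.98. PCDHAC2 was also higher in hypoxia without overlap in each clone, by 0.41 (adjusted p = 0.021), 0.68 (adjusted p = 0.00046) and 0.86 (adjusted p = 6.9e-05), each under the fold threshold. The other 7 tested alpha genes were not called, and the alpha cluster as a whole summed to 29.6 ± 4.65 CPM in normoxia and 38.2 ± 5.22 in hypoxia in sgCtl, to 23.4 ± 2.21 and 32.7 ± 5.92 in sgXIST7, and to 20.3 ± 1.96 and 36.6 ± 4.52 in sgXIST9 (SD, n = 3).

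PCDHGC3, the leading gamma gene in normoxia and a C-type gene known from many tissues outside the nervous system, fell in sgXIST7. Its counts there went from 271, 351 and 287 to 111, 84 and 19 (log2 fold change -1.98, SE 0.36, adjusted p = 0.00016), from 14.6 to 3.58 CPM. In sgCtl they went from 171, 227 and 224 to 147, 171 and 51 (-0.90, SE 0.35, adjusted p = 0.038) and in sgXIST9 from 183, 169 and 149 to 129, 153 and 51 (-0.68, SE 0.35, adjusted p = 0.11). On the CPM scale the oxygen levels were apart in all 3 clones, with hypoxia lower, but only sgXIST7 passed. The interaction of sgXIST7 against sgCtl was -1.08 (SE 0.49, adjusted p = 0.17), so that a difference between these clones was not shown. The share of PCDHGC3 in the gamma cluster's CPM went from 26.6% ± 1.0 to 16.5% ± 4.9 in sgCtl, to 8.67% ± 3.2 from 30.2% ± 0.82 in sgXIST7, and to 11.4% ± 2.5 from 26.1% ± 3.0 in sgXIST9. Per kilobase it was no longer first in the hypoxic KD clones: PCDHGB1 led with 2.13 ± 0.51 CPM in sgXIST7, where PCDHGC3 stood behind 3 others at 1.27 ± 0.65, and with 2.17 ± 0.36 in sgXIST9, where PCDHGC3 stood behind 2 others at 1.89 ± 0.68. In sgXIST9 these levels overlapped along the order from PCDHGB1 to PCDHGA4.

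PCDHGC4 and PCDHGC5 were not called. PCDHGC4 had 8, 17 and 16 counts against 16, 21 and 4 in sgCtl, 27, 31 and 21 against 11, 13 and 6 in sgXIST7, and 15, 7 and 11 against 22, 18 and 5 in sgXIST9. PCDHGC5 had 2, 15 and 15 against 9, 19 and 3, then 13, 28 and 23 against 10, 10 and 1, then 8, 9 and 9 against 22, 22 and 5. For both, the oxygen levels were apart, with hypoxia lower, in sgXIST7 alone (log2 fold changes -1.19, adjusted p = 0.030, and -1.46, adjusted p = 0.057). All other gamma genes are spread among the A and B types. In sgXIST9, PCDHGA11 rose from 23, 19 and 29 to 70, 67 and 40 counts (1.24, SE 0.32, adjusted p = 0.0033) and PCDHGB5 from 8, 7 and 5 to 20, 24 and 13 (1.45, SE 0.42, adjusted p = 0.0074). Neither was called in the other clones, and their interactions in sgXIST9 were 1.02 (adjusted p = 0.20) and 1.16 (adjusted p = 0.27). The call of PCDHGB5 was lost under DESeq2, without a filter on low counts and without any 1 of the 6 sgXIST9 libraries (1.33 to 1.54), and that of PCDHGA11 without normoxia replicate 1 or 2 or hypoxia replicate 1 (1.11 to 1.18). The median over the 20 tested gamma genes was -0.09 in sgCtl, 0.15 in sgXIST7 and 0.73 in sgXIST9, where 19 of 20 were higher in hypoxia beside 54.5% of all genes, and PCDHGC3 was the exception.

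Single libraries decided some of these counts. In sgCtl the count of genes called in hypoxia was 0 without hypoxia replicate 1, 1 without normoxia replicate 2, 2 without normoxia replicate 3 or hypoxia replicate 3, and 5 without hypoxia replicate 2, which adds PCDHB5. In sgXIST7 it was 3 without hypoxia replicate 2, and 4 or 5 without any other. In sgXIST9 it was 3 without normoxia replicate 1 or hypoxia replicate 1, 4 without normoxia replicate 2 or 3 or hypoxia replicate 2, and 6 without hypoxia replicate 3.

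**Figure D3:**
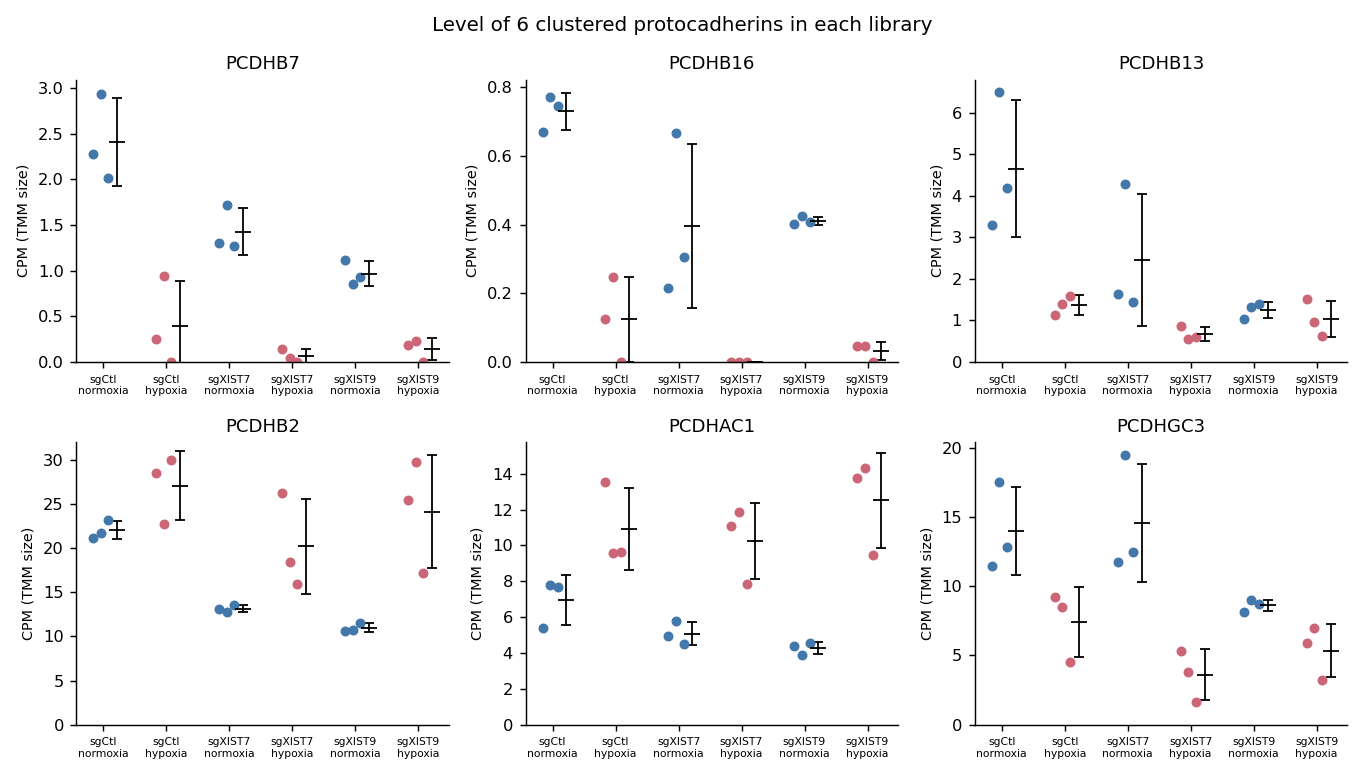
CPM (y axis, TMM library size) of PCDHB7, PCDHB16, PCDHB13, PCDHB2, PCDHAC1 and PCDHGC3 in each library by guide and oxygen (x axis; blue normoxia, red hypoxia). Points are libraries, and bars are the mean and SD of 3, cut off at 0. PCDHB7 and PCDHB16 are lower and PCDHAC1 is higher in every hypoxia library than in any normoxia library of its clone.

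XIST KD was compared with sgCtl at each oxygen level. In normoxia most clustered genes had a lower level in both KD clones, but few passed the test. Against the same 3 sgCtl libraries, 33 of 40 genes were lower in sgXIST7 and 38 of 40 in sgXIST9, all 11 beta genes in both, where 49.4% and 47.6% of all genes were higher. Only sgXIST9 had calls, 2 genes lower, PCDHB2 and PCDHB13 (5% of the 40, where 7.7% of all genes were called and 3.77% were called lower). In sgXIST7 edgeR and DESeq2 called 0, where 7.76% of all genes were called in either direction. There 6 of the 40 had an unadjusted p under 0.05, a count with no share of all genes beside it. Groups did not overlap for 9 genes in sgXIST7 (45.5% of all genes) and 22 in sgXIST9 (53.9% of all genes). Without sgXIST7 normoxia replicate 2, PCDHB13 was called in that clone. The number of genes lower in sgXIST7 was 24 without sgCtl normoxia replicate 2, the library with the highest CPM of its group for 16 of 20 gamma, 8 of 11 beta and 7 of 9 alpha genes. It was 26 and 27 without sgXIST7 normoxia replicate 1 or 3, and 34 to 37 without any other library. Replicate 2 of sgXIST7 in normoxia was highest of its group for 19 of 20 gamma, 10 of 11 beta and 8 of 9 alpha genes.

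PCDHB2 went from 22.1 CPM in sgCtl to 10.99 in sgXIST9 in normoxia (log2 fold change -1.01, SE 0.19, adjusted p = 0.0010), and its counts of 316, 281 and 405 against 238, 203 and 198 did not overlap. In sgXIST7 it was at 13.1 CPM, also without overlap (-0.75, SE 0.19, adjusted p = 0.0089, below the fold threshold). PCDHB13 went from 4.66 to 1.25 CPM in sgXIST9 (-1.89, SE 0.40, adjusted p = 0.0024), and in sgXIST7 it was at 2.45 CPM with overlap (adjusted p = 0.097). The call of PCDHB2 ended under DESeq2 (which called PCDHA11 in its place), with median-of-ratios scaling and with only the groups compared, while that of PCDHB13 held in each. No call was left without sgXIST9 normoxia replicate 1 or 2, and 1 was left without sgCtl normoxia replicate 2 (PCDHB2) or 3 (PCDHB13). The C-type genes were not called: in sgXIST9 PCDHAC1 had a log2 fold change of -0.70 (adjusted p = 0.032), PCDHAC2 of -0.49 (adjusted p = 0.020) and PCDHGC3 of -0.69 (adjusted p = 0.17), and in sgXIST7 every C-type gene had an adjusted p of at least 0.165. Median log2 fold changes in sgXIST9 were -0.47 for alpha, -1.01 for beta and -0.65 for gamma genes, beside -0.02 over all genes. In sgXIST7 they were -0.46, -0.75 and -0.17, beside -0.01.

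In hypoxia the median log2 fold change over the 40 genes was -0.34 in sgXIST7 and -0.02 in sgXIST9, beside -0.26 and -0.70 in normoxia. PCDHA11 was the only gene called, lower in sgXIST7 with 70, 37 and 12 counts against 68, 116 and 47 in sgCtl (2.02 against 4.72 CPM, log2 fold change -1.19, SE 0.31, adjusted p = 0.0059), 2.5% of the 40 where 14% of all genes were called and 6.19% were called lower. Groups did not overlap for 6 genes in sgXIST7 (40.5% of all genes) and 5 in sgXIST9 (33.7% of all genes). The count was 0 with only the groups compared, without sgCtl hypoxia replicate 1 or 2 or sgXIST7 hypoxia replicate 2 or 3, and 5 without sgCtl hypoxia replicate 3, which adds PCDHA9, PCDHB7, PCDHB16 and PCDHGC3. In sgXIST9 edgeR called 0 and DESeq2 1 (PCDHB9), where edgeR called 9.53% of all genes. There 4 of the 40 had an unadjusted p under 0.05, a count with no share of all genes beside it. Without sgCtl hypoxia replicate 3 edgeR called 1 (PCDHB9). The clusters summed to 120.8 ± 7.23 CPM in sgCtl, 103.5 ± 22.5 in sgXIST7 and 120 ± 21.9 in sgXIST9 in hypoxia, all overlapping, beside 129.4 ± 23.2, 101.3 ± 22.2 and 75.9 ± 4.96 in normoxia. Between the KD clones, no clustered gene was called by edgeR or DESeq2, with 3.4% of all genes called in normoxia and 4.46% in hypoxia. Of the 40, 8 and 1 had an unadjusted p under 0.05, again with no share of all genes beside these counts. Without sgXIST7 hypoxia replicate 1, 1 gene (PCDHA11) was called in hypoxia.

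**Figure D4:**
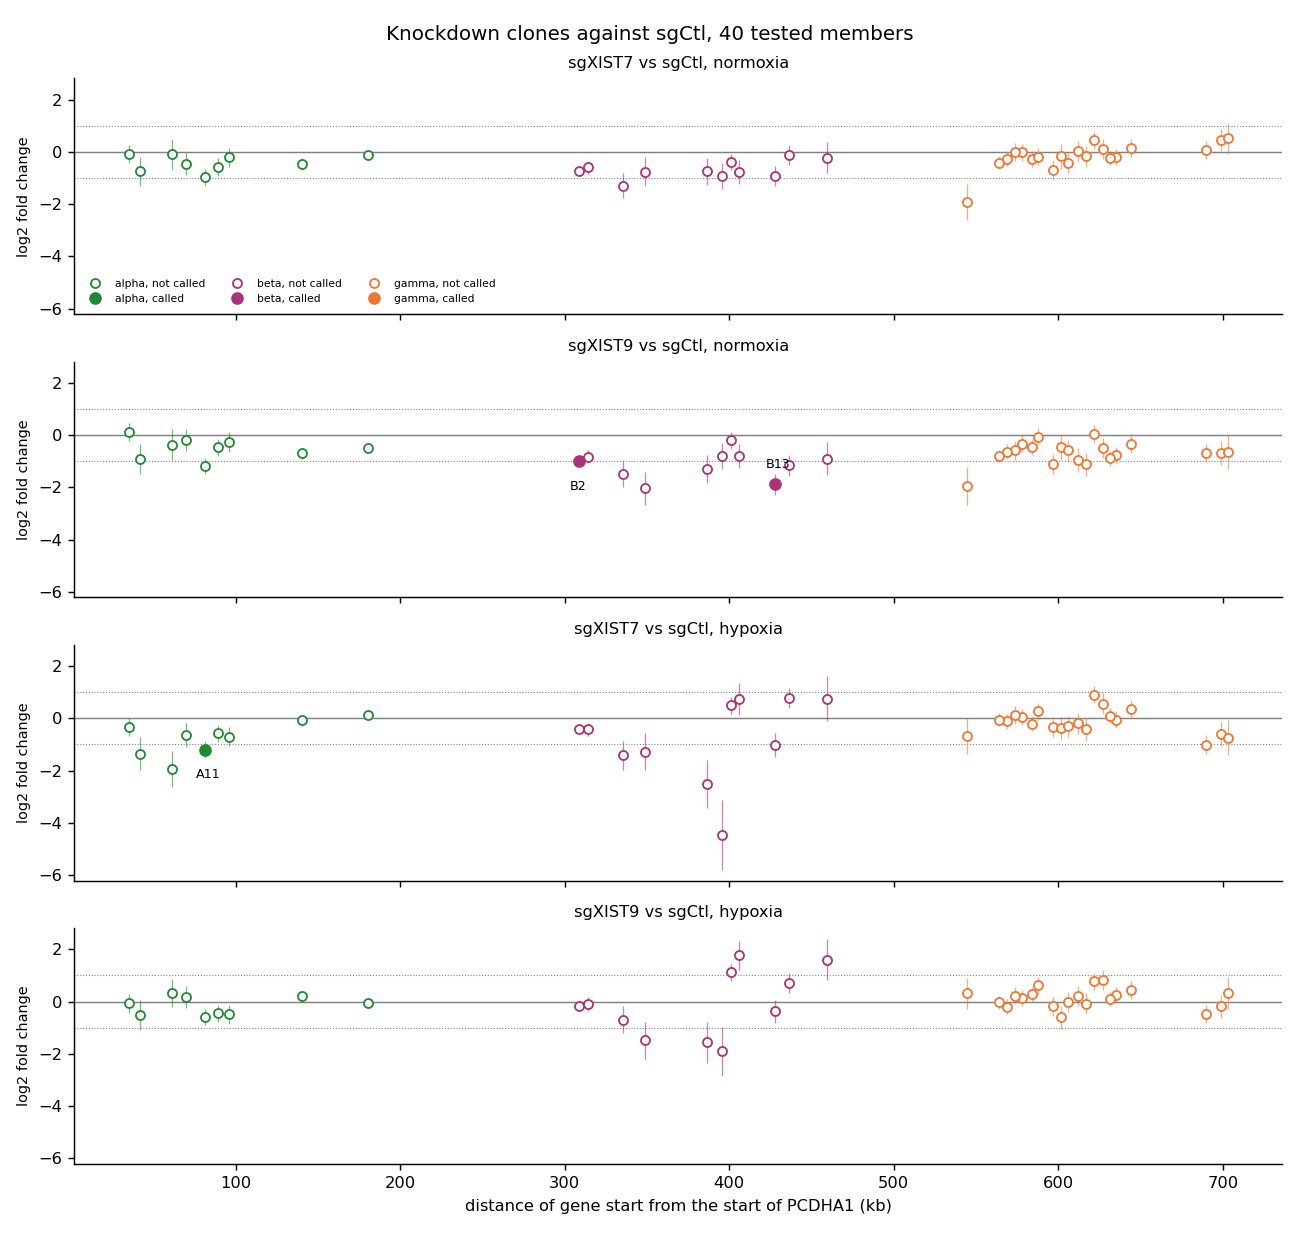
Log2 fold change (y axis) of sgXIST7 and sgXIST9 against sgCtl in normoxia and in hypoxia for the 40 tested genes, by distance of the gene start from that of PCDHA1 in kb (x axis). Bars are standard errors, dotted lines mark a log2 fold change of 1 in either direction, and filled points are called genes (PCDHB2 and PCDHB13 in sgXIST9 in normoxia, PCDHA11 in sgXIST7 in hypoxia). Most points lie under 0 in normoxia.

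Genes known to control the clusters were read in the same fit, from a list of 23 chromatin architecture and silencing genes, all of them tested. In hypoxia 3 (sgCtl), 4 (sgXIST7) and 4 (sgXIST9) were called, where 19.7%, 27.3% and 23.3% of all genes were, and the list's median log2 fold change was -0.38, -0.48 and -0.41, beside 0.02, 0.01 and 0.09 over all genes. DNMT3B, a de novo DNA methyltransferase that is known to act on clustered protocadherin promoters, was at 25.5, 27.5 and 22.7 CPM in sgCtl in normoxia and 7.69, 8.14 and 6.56 in hypoxia, and it fell by 1.75, 2.07 and 1.63 on the log2 scale in sgCtl, sgXIST7 and sgXIST9 (adjusted p = 1.374e-07, 7.937e-09 and 1.235e-07). DNMT1, the maintenance methyltransferase, fell by 1.04, 1.76 and 1.62. TET2, which oxidises methylcytosine, rose by 1.08, 1.82 and 1.36, and TET1, of the same family, was called higher in the KD clones, by 1.94 and 1.56. In sgCtl TET1 was not called, but went from 32.1, 44.2 and 27.9 to 54.2, 58.8 and 86.8 CPM without overlap. None of the 23 was called in either interaction. SMCHD1 was lower without reaching the fold threshold (-0.89, -0.75 and -0.65, each with an adjusted p of at most 0.000149). CTCF was at -0.25 (adjusted p = 0.081), -0.52 (adjusted p = 0.0010) and -0.27 (adjusted p = 0.058). In normoxia 0 of the 23 were called in either KD clone (edgeR). In hypoxia TET1 was higher in sgXIST7 than in sgCtl (1.16), and the cohesin genes RAD21 (1.13) and STAG2 (1.22) were higher in sgXIST9. In sgCtl the call of DNMT1 was lost without hypoxia replicate 1 (-0.96) and that of TET2 without hypoxia replicate 3 (0.96) or normoxia replicate 1, and the call of TET1 against sgCtl was lost without sgCtl hypoxia replicate 1 (1.03) or 2 or sgXIST7 hypoxia replicate 3. Protocadherin promoter methylation was not measured, and the part of these genes in the protocadherin changes was not tested.

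**Figure D5:**
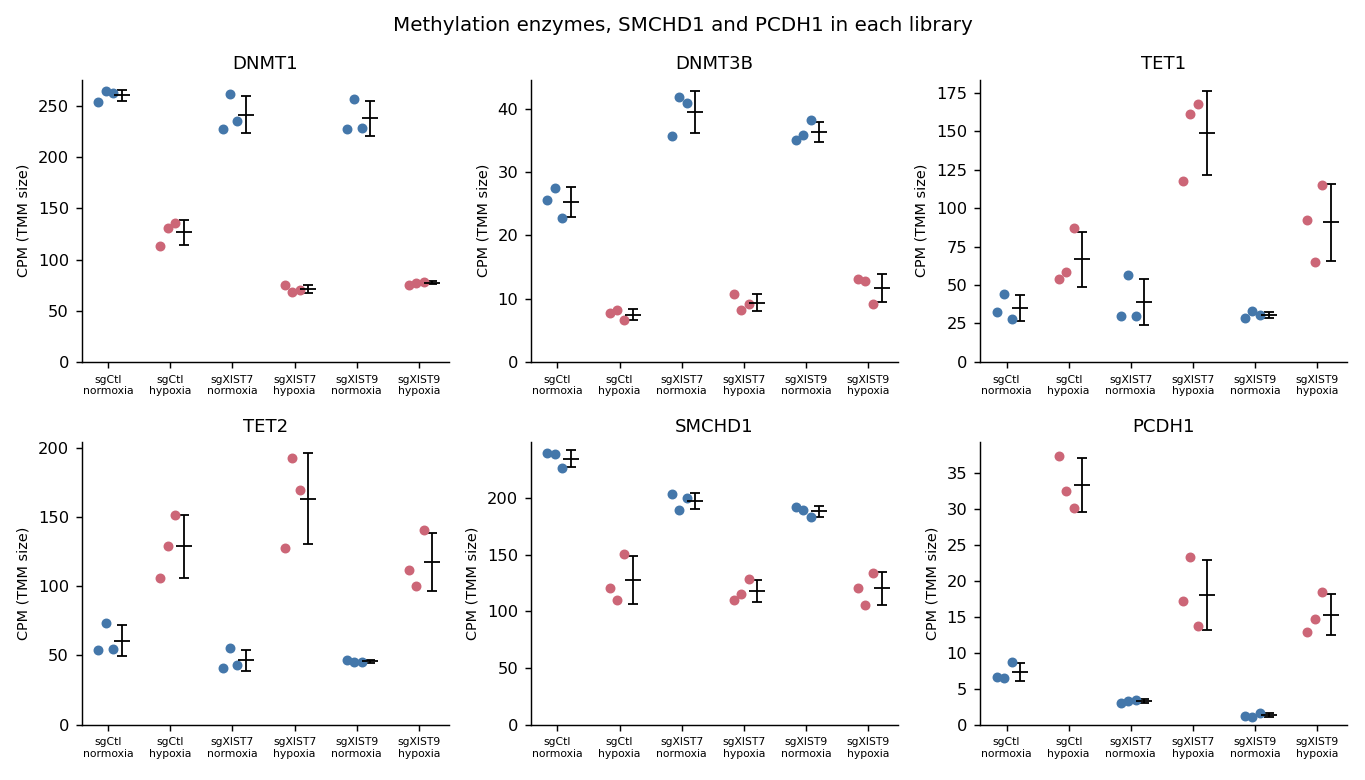
CPM (y axis, TMM library size) of DNMT1, DNMT3B, TET1, TET2, SMCHD1 and the non-clustered protocadherin PCDH1 in each library by guide and oxygen (x axis; blue normoxia, red hypoxia). Points are libraries and bars are the mean and SD of 3. DNMT1, DNMT3B and SMCHD1 are lower and TET1, TET2 and PCDH1 higher in every hypoxia library than in any normoxia library of its clone.

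Of 18 genes whose proteins process clustered protocadherins or signal beside them, all tested, 3, 4 and 4 rose in hypoxia, where 11.3%, 15.1% and 14.7% of all genes did, and 0 fell. RET, a receptor kinase known to bind these proteins, rose by 3.78, 3.99 and 4.58 on the log2 scale in sgCtl, sgXIST7 and sgXIST9, and FYN, a Src-family kinase, by 3.43, 4.67 and 3.45. BRK1, a subunit of the actin-regulating WAVE complex that binds protocadherin tails, rose by 1.17, 2.10 and 1.03. CYFIP2, of the same complex, rose in the KD clones only (1.29 and 1.30). Against sgCtl, MARCKS, an actin-binding substrate of protein kinase C, was higher in sgXIST7 in normoxia (1.60) and in both KD clones in hypoxia (2.11 and 1.64), CYFIP2 was lower in sgXIST9 in normoxia (-1.14) and RET was lower in sgXIST7 in hypoxia (-1.27). This call of RET was lost without sgXIST7 hypoxia replicate 3 (-0.997) or 2 or sgCtl hypoxia replicate 1 or 2, and the call of BRK1 was lost without hypoxia replicate 3 in sgCtl (0.96) and in sgXIST9 (0.83). ADAM10 and the presenilins, which cut clustered protocadherins, were not called in any comparison.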

How the data were processed

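RNA of 18 libraries of OVCAR3-KRAB cells (3 per guide and oxygen level) was sequenced on a NovaSeq from a stranded total RNA kit after removal of ribosomal RNA. The authors trimmed reads with Trimmomatic, checked them with FastQC, aligned them to hg38 with HISAT2, and deposited whole-number read counts per gene from featureCounts. Versions were not given in the sources used here. The table's 2 broken lines, which hold no complete gene, were left out. The genes and lists were chosen with earlier results of these data known.

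All 6 groups were fitted together with edgeR 4.0.16 (R 4.3.3; TMM, quasi-likelihood, robust). Genes passed filterByExpr at a minimum count of 10 and a total of 15, which left 14938. There were 11 comparisons, and depth was 11794375 to 24906936 counts per library. Each gene of the clusters may be named. Full statistics were given where a gene was called (at most 8 per comparison and direction, by mean CPM) and for the C-type genes. Genes of the regulator, partner, non-clustered and flanking lists were named when called, and cell type markers when called against sgCtl. CTCF, SMCHD1, DNMT3B and XIST were named in any case. PCDHB17P and single-gene values that did not pass were chosen after their values were seen. Exact permutation tests were two-sided. DESeq2 1.42.0, other scalings, filters, thresholds, a replicate block and leaving out each library were tried. The fit was tested on simulated data. Promoter sequences came from RefSeq (GRCh38.p14), and 50-base windows were matched to hg38 with Python 3.11.15.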

Additional observations from a re-analysis of the deposited data

Results flagged for a closer look

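CYFIP2, a subunit of the WAVE complex that binds the tails of clustered protocadherins, responded to hypoxia differently in both KD clones than in sgCtl, by the interaction term of the edgeR fit. It was at 47.2 CPM in normoxia and 42.9 in hypoxia in sgCtl, at 27.2 and 66.1 in sgXIST7, and at 21.3 and 52.7 in sgXIST9. The interaction was 1.427 on the log2 scale in sgXIST7 (SE 0.22, adjusted p = 0.0013) and 1.445 in sgXIST9 (SE 0.22, adjusted p = 0.0014). Both use the same sgCtl libraries. Without any 1 library the values lay between 1.30 and 1.65 in sgXIST7 and between 1.32 and 1.66 in sgXIST9. No clustered protocadherin was called in either interaction by edgeR or DESeq2. At an unadjusted p under 0.05 there were 2 (sgXIST7) and 13 (sgXIST9) of 40, and the share of all genes at that p is not given here.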

How the results depend on the processing

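The labels tie replicate numbers to no shared culture or day. Over 45 same-numbered pairs of libraries the correlation of deviations from the group mean ran from -0.0727 to 0.566 and was over 0.1 in 15, so the libraries were not treated as paired. As a hint from the data, not the design, 16 of 18 libraries correlated best with their own number. A replicate block moved the count of called genes to 2 in sgXIST7 against sgCtl in hypoxia (PCDHGC3 added) and to 1 between the KD clones in hypoxia (PCDHA9), and moved no other count by over 1.5 times.

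Counts of called genes moved as follows. Shares of all genes given above belong to the main fit, and those under the other settings are not given. In sgXIST9 against sgCtl in normoxia the count was 1 with median-of-ratios scaling, 6 at an adjusted p under 0.05 and 6 with only the groups compared. In sgXIST7 against sgCtl in hypoxia it was 2 without a filter, 5 at 0.05, 0 with only the groups compared and 2 without hypoxia replicate 3 of every clone. In sgXIST9 against sgCtl in hypoxia it was 1 by DESeq2, 2 at 0.05 and 1 without these libraries. Between the KD clones it was 1 with only the groups compared in normoxia and 1 at 0.05 in hypoxia. For hypoxia, a filter at a mean of 1 CPM, which drops PCDHB7, PCDHB16, PCDHB10 and PCDHGB5, left 1 (sgCtl), 3 (sgXIST7) and 4 (sgXIST9), and only the groups compared left 1 in sgCtl, where PCDHB10 was then too low to be tested. The interaction in sgXIST9 had 1 call at 0.05 (PCDHB10) and 3 without hypoxia replicate 3 of every clone. Leaving out 1 library gave 0 to 5 (sgCtl), 3 to 5 (sgXIST7) and 3 to 6 (sgXIST9) in hypoxia, 0 to 1 and 0 to 2 for the KD clones against sgCtl in normoxia, 0 to 5 and 0 to 1 in hypoxia, 0 to 0 and 0 to 1 between the KD clones, and 0 to 0 for both interactions. With the table's own gene length, the level in sgCtl in normoxia was 1.81 CPM per kilobase for PCDHAC2, 1.23 for PCDHAC1, 2.79 for PCDHGC3 and 1.28 for PCDHGB1.

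Among the called and C-type genes, signs turned for C-type genes that were not called. Without 1 library, the log2 fold change of PCDHGC3 in sgXIST7 against sgCtl in normoxia ran from -0.2014 to 0.2557 and was also -0.06281. In hypoxia PCDHAC1 in sgXIST7 ran from -0.2027 to 0.09716 and was also 0.07047, PCDHAC2 in sgXIST9 ran from -0.08926 to 0.002948, and PCDHGC4 in sgXIST9 ran from -0.4995 to 0.1267 and was also 0.04466. In sgCtl, hypoxia against normoxia, PCDHGC4 ran from -0.4197 to 0.1671 and was also 0.1626, and PCDHGC5 ran from -0.7156 to 0.2695 and was also 0.1033. Without hypoxia replicate 3 of every clone these 2 were 0.1654 and 0.1083. The causes of these changes were not tested. Of 725 values of single clustered genes, 650 kept direction and side of the threshold, 58 lost the call, 4 gained it and 13 turned sign. Low counts limit PCDHB16, PCDHB10 and PCDHGB5 most, since few reads decide each value.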

Other observations

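PCDHB17P, a pseudogene between PCDHB6 and PCDHB7 that the symbol rule leaves out, was looked at after its values were seen. Its counts in normoxia and hypoxia were 105, 83 and 116 against 43, 55 and 30 in sgCtl, 100, 94 and 69 against 25, 11 and 6 in sgXIST7, and 67, 74 and 60 against 29, 53 and 17 in sgXIST9. Every hypoxia library was below every normoxia library of its clone. The log2 fold change was -1.31 (adjusted p = 0.0019), -2.45 (adjusted p = 1.105e-05) and -1.10 (adjusted p = 0.0071) by edgeR. Since the gene was picked by its values, these are no test of a fall shared with PCDHB7 and PCDHB16 on its downstream side. Of the 4 pseudogenes of the clusters, PCDHGB8P was not called in hypoxia in any clone (0.18, -0.24 and 1.18). PCDHB18P and PCDHB19P were too low to be tested. Their mean CPM was lower in hypoxia in each clone, except for PCDHB19P in sgXIST9 (0.229 in normoxia and 0.251 in hypoxia).

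Of 12 non-clustered protocadherins, which are encoded outside the clusters, 4 were tested, and 2 (sgCtl), 1 (sgXIST7) and 3 (sgXIST9) rose in hypoxia by edgeR, where 11.3%, 15.1% and 14.7% of all genes did. PCDH1, an epithelial protocadherin, went from 7.27 to 33.3 CPM in sgCtl, to 18.01 from 3.25 in sgXIST7, and to 15.3 from 1.28 in sgXIST9 (log2 fold changes 2.19, 2.47 and 3.57). It was lower than sgCtl in normoxia in sgXIST7 (-1.16) and in sgXIST9 (-2.51). PCDH19 rose in sgCtl (3.45) and sgXIST9 (3.12), and PCDH11X rose in sgXIST9 (1.98). Against sgCtl in hypoxia, PCDH10 was higher (1.48) and PCDH19 lower (-2.64) in sgXIST7. Calls of PCDH19 in both KD clones and of PCDH11X were lost without any of 4 or 5 of the 6 libraries compared, with log2 fold changes from 2.48 to 3.55 (PCDH19, sgXIST9), from -3.09 to -2.01 (PCDH19, sgXIST7) and from 1.61 to 2.77 (PCDH11X).

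Within 1 Mb of the clusters, 39 of 50 other listed genes were tested, of which 5, 8 and 8 rose and 1 fell in hypoxia in sgCtl, sgXIST7 and sgXIST9, where 11.3%, 15.1% and 14.7% of all genes rose. Against sgCtl, 3 and 4 were higher and 2 lower in sgXIST7 and sgXIST9 in normoxia, and 7 and 5 were higher and 2 and 1 lower in hypoxia, where 7.76%, 7.7%, 14% and 9.53% of all genes were called in either direction. NRG2, a growth factor of the neuregulin family, was at 1.80 CPM in sgCtl, 8.56 in sgXIST7 and 10.04 in sgXIST9 in normoxia, and was higher in the KD clones by 2.23 and 2.46 on the log2 scale there and by 1.53 and 1.92 in hypoxia. NDFIP1, an adaptor of ubiquitin ligases, was at 68.1, 184.7 and 221.4 CPM in normoxia (log2 fold changes 1.44 and 1.70, and 1.14 and 1.34 in hypoxia, where the call in sgXIST7 was lost without its hypoxia replicate 1, at 0.995). HBEGF, a ligand of the EGF receptor, rose in hypoxia in each clone, by 2.82, 1.77 and 1.89, and was lower in sgXIST7 than in sgCtl in hypoxia. APBB3, PSD2, SLC4A9 and PCDH1 also rose in each clone, RELL2 and SPRY4-AS1 in both KD clones, MALINC1 in sgXIST7 and EIF4EBP3 in sgXIST9, and LOC101929719 fell in each. Against sgCtl, SPRY4-IT1 was higher in both KD clones at both oxygen levels, SPRY4 in sgXIST9 at both and in sgXIST7 in hypoxia, SPRY4-AS1 in both in hypoxia, and APBB3 and RELL2 in sgXIST7 in hypoxia, while FCHSD1 was lower in both in normoxia and in sgXIST7 in hypoxia. In sgXIST7 against sgCtl, the call of SPRY4-IT1 in normoxia was lost in 8 of 14 other settings and that of FCHSD1 in hypoxia in 6 of 13. The hypoxia response of LOC101929719 lost its call in 9 of 13 settings in sgXIST7 and 6 of 13 in sgXIST9, and that of PSD2 in 7 of 13 in sgXIST7. APBB3, RELL2 and SRA1 in hypoxia and PCDH1 in normoxia were higher in sgXIST7 than in sgXIST9.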
